A study of Mus musculus with 7 samples.

Results

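The 8 genes described here encode parts of one signalling route in mouse neutrophils, the JAK-STAT pathway: the kinases Jak1 and Jak2, the transcription factors Stat3 and Stat5a, the feedback inhibitors Socs1, Socs3 and Cish, and the kinase Pim1. They were chosen by name, with earlier results of these data known, and were read as 8 of the 28719 genes across the count tables. Levels were taken over neutrophils: in the healthy libraries, cells in which S100a8 and S100a9 together made up at least 3% of the unique molecular identifiers (UMIs, counted mRNA molecules), which kept 12755 of 16907 cells. In the inflammation library, cells that the authors had matched to a granulocyte class of the ImmGen reference were used, 4852 of 4856 cells.

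JAK kinases sit on the inside of cytokine receptors and, once a cytokine binds, phosphorylate STAT proteins, which enter the nucleus and switch on genes. Socs1, Socs3 and Cish are such target genes, and their proteins bind the receptors or the JAKs and shut the signal down. In neutrophils, granulocyte colony-stimulating factor (G-CSF, encoded by Csf3) acts through the receptor Csf3r, largely by Stat3, and Socs3 is its main brake, whereas Cish mostly restrains Stat5 signals. Pim1, a serine/threonine kinase that favours survival, is another STAT target.

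All cells came from male C57BL/6J mice and were sorted as CD11b+ Ly6G+ live cells, so early precursors without Ly6G were outside the gate. Blood, bone marrow and spleen of healthy mice were each profiled in 2 runs, from mice 6 weeks old in run 1 and 8 weeks old in run 2, with 3 mice pooled per tissue and run. A further hashtagged library, from mice 8 weeks old with 3 mice per condition, held 5 conditions: blood of unstimulated mice (healthy blood), blood and joint of mice with arthritis from 150 µl of K/BxN serum given on days 0 and 2 and collected on day 7, and lung and peritoneum collected 3 h after 25 ng of IL-1β was given into the nose in 30 µl or into the peritoneum in 200 µl. K/BxN serum holds arthritis-inducing autoantibodies, and IL-1β is an inflammatory cytokine that draws neutrophils into tissue. The healthy libraries and the inflammation library were made with different 10x chemistries, so levels are compared within each of these captures. Each inflamed condition was 1 pool, so its values have counting intervals (95%, exact Poisson for a level and exact conditional for a ratio, which cover counting error alone) and no test.

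All 15 neutrophil markers were detected in each of the 11 profiles. Median depth ran from 775 to 2698 UMIs per neutrophil in the healthy libraries and from 2527 to 3681 in the inflammation library, and totals ran from 942688 UMIs in IL-1β peritoneum to 10293966 in the arthritic joint. Markers of B, T and erythroid cells were most abundant in run 2, at 903 CPM (counts scaled to a common UMI total per library) for 8 B cell genes and 215 CPM for 9 T cell genes in spleen, and at 30352 CPM for 7 erythroid genes in blood, whereas 11 monocyte or macrophage genes were highest in bone marrow, at 1391 CPM in run 1 and 1020 CPM in run 2, and in spleen of run 1, at 1157 CPM. The run 1 tables list no gene with under 11 UMIs in the library, so an unlisted gene is given as an upper bound, not as 0. At most 36 cell barcodes were shared between any pair of libraries.

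The 8 genes lie on 6 chromosomes (RefSeq, GRCm38.p6): Jak1 at chr4:101151974-101265282, Cish at chr9:107296659-107302784, Socs1 at chr16:10783808-10785536, Pim1 at chr17:29490785-29496111 and Jak2 at chr19:29251803-29313095, with Stat5a at chr11:100859351-100885169, next to Stat3 at chr11:100886806-100939594, and Socs3 at chr11:117966079-117970336. A STAT dimer typically binds the palindrome TTCNNNGAA, which reads the same on both strands. RefSeq promoter windows of 250 bases before to 50 bases after a gene's start were found for all 8 genes, 10 windows in all, and 2 of them, those of Socs3 and Cish, held this motif. Of all 32851 windows, 8.3% held it, and 0.457% held 2 or more matches, as the Cish window did. The Socs3 and Cish stretches are printed because these were the genes with the largest ratios in the IL-1β conditions below. The motif is in capitals. In Socs3 (minus strand, chr11:117969367-117969566, ending at the last base before the start that the RefSeq window uses, which lies inside the gene's outer bounds) it begins 154 bases before the start, and in Cish (plus strand, chr9:107296654-107296683) the matches begin at transcribed bases 1 and 12.
Socs3: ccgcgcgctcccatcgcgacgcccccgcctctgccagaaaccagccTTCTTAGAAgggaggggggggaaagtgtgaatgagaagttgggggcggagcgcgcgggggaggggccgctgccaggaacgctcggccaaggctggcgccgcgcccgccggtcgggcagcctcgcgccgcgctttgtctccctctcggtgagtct
Cish: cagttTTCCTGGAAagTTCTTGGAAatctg
A match is a description of these letters, and its absence from the other 8 windows says only that they do not occur there.

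In healthy mice, the comparison of tissues asked how the pathway genes differ between neutrophils at their site of production and those in circulation. Socs3 differed most: its level in bone marrow was 13.3-fold below blood. Pim1 and Jak2 were also lower in bone marrow, 2.73-fold and 2.60-fold, and Jak1 by 1.57-fold, and no tested gene rose there. Of the 6 genes that could be tested, 4 fell at a false discovery rate of 0.05 (edgeR quasi-likelihood test with run as a block, adjusted over 6588 genes). Among all genes tested, 15.8% fell and 15.2% rose in this comparison. The median log2 difference of the 6 genes was -1.01, beside 0.00 over all genes tested.

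Socs3 was at 5.89 and 21.5 CPM in bone marrow (runs 1 and 2), at 160 and 230 CPM in blood and at 44.7 and 247 CPM in spleen. The bone marrow libraries were below every blood and spleen library, and the spleen libraries lay far apart. The fitted log2 difference of bone marrow from blood was -3.74 ± 0.38 (SE; 2 libraries per tissue), with an edgeR adjusted p of 0.000406. Against spleen it was -3.01 ± 0.37, with an adjusted p of 0.00366. Fitted without the run as a block, the adjusted p values were 0.0839 and 0.351, so the call rests on pairing the tissues of a run, which came from the same mice.

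Pim1 stood at 37.4 and 74.3 CPM in bone marrow, 155 and 211 CPM in blood, and 88.6 and 205 CPM in spleen. Its bone marrow libraries were again below all the others. The log2 difference from blood was -1.45 ± 0.22 with an edgeR adjusted p of 0.00214, and that from spleen -1.16 ± 0.22 with an adjusted p of 0.0195. Without the block these adjusted p values were 0.125 and 0.492.

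Of the kinases, Jak2 was at 8.24 and 11.5 CPM in bone marrow, 30.1 and 34.2 CPM in blood and 14.9 and 27.6 CPM in spleen. Its groups did not overlap, and its log2 difference between bone marrow and blood was -1.38 ± 0.25 (edgeR adjusted p = 0.00438, or 0.0669 without the block and 0.0633 without blood of run 1). Jak1, which pairs with many cytokine receptors, was at 97.5 and 107 CPM in bone marrow, 192 and 206 CPM in blood and 116 and 210 CPM in spleen. Its log2 difference from blood, -0.65 ± 0.21, had an edgeR adjusted p of 0.0419, which was 0.177 without the block and above 0.05 in 13 of 19 alternative fits, including each that left out a blood or bone marrow library. CPM is a share of the mRNA captured, not an amount per cell.

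Stat3 was at 55.8 and 71.4 CPM in bone marrow, 108 and 133 CPM in blood, and 56.2 and 127 CPM in spleen. Its log2 difference of bone marrow from blood, -0.61 ± 0.22, did not pass (edgeR adjusted p = 0.0599), though it did when either spleen library was left out (0.0164 and 0.024). Stat5a was low throughout, from 5.27 to 12.8 CPM over the 6 libraries, with overlapping tissues and a log2 difference of -0.01 ± 0.40 between bone marrow and blood. Stat5a has a close paralog, Stat5b, and how reads matching both were counted is not given in the sources used here.

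Socs1 and Cish were near the limit of detection in healthy neutrophils and were not tested, since the run 1 blood table lists neither. Socs1 was at 4.0 and 3.51 CPM in bone marrow, at most 7.35 and 5.46 CPM in blood, and 3.35 and 7.67 CPM in spleen. Cish was at 2.59 and 3.08 CPM in bone marrow, at most 7.35 and 0.575 CPM in blood, and at most 3.72 and 1.02 CPM in spleen. In run 2, where all values are listed, Cish rested on 28 UMIs in bone marrow, 2 in blood and 2 in spleen. With unlisted genes entered at 10 UMIs, a fit added after the data were seen, the log2 difference of bone marrow from blood was -0.44 for Socs1 (edgeR adjusted p = 0.596) and 0.60 for Cish (edgeR adjusted p = 0.733). With 0 UMIs entered, the Socs1 value turned to 0.95 (edgeR adjusted p = 0.621), so no direction can be given.

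**Figure D1:**
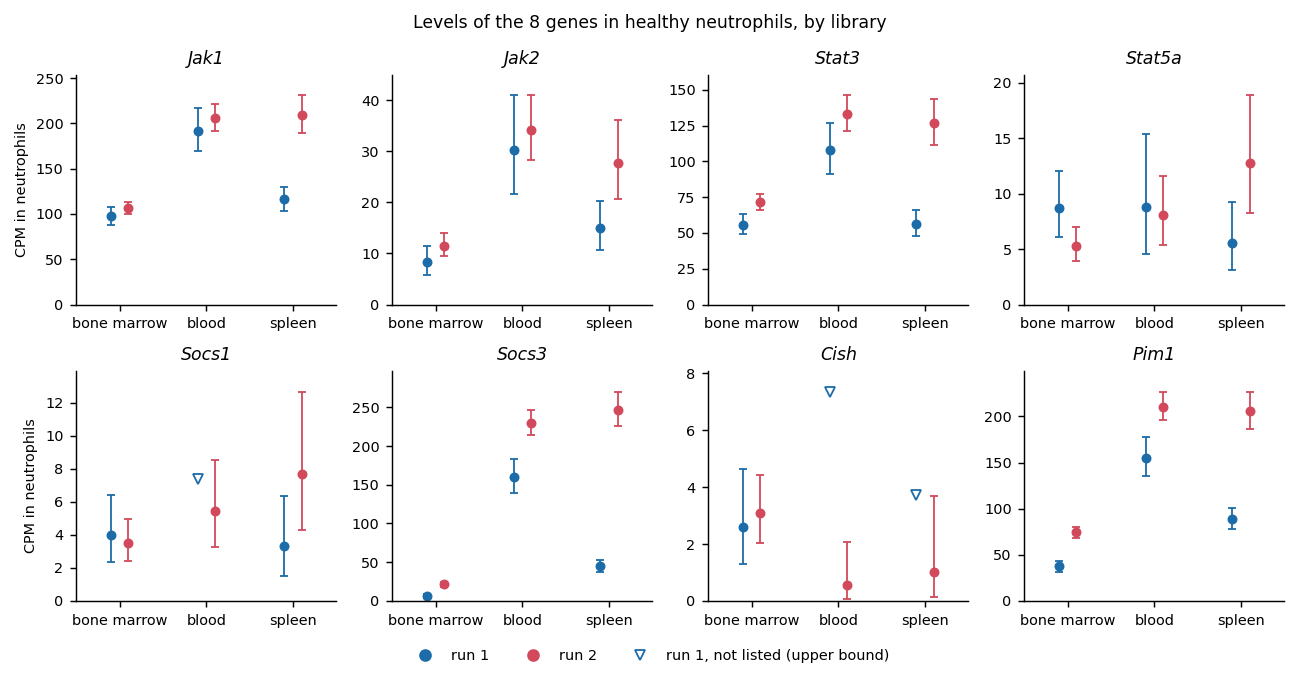
Level in CPM (vertical axis, each panel on its own scale from 0) of each gene in neutrophils of the 6 healthy libraries, by tissue, with run 1 in blue and run 2 in red. Bars are 95% Poisson counting intervals and open triangles are upper bounds for genes that the run 1 tables do not list. Socs3, Pim1, Jak1 and Jak2 sit lower in both bone marrow libraries than in every other library, and the share of all genes that do so was not computed. Spleen of run 1 sits below spleen of run 2 for 7 genes with a value in each.

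Between bone marrow and spleen, 2 of the 6 tested genes fell, Socs3 and Pim1, where 3.96% of all genes fell. Without spleen of run 2, neither passed (edgeR adjusted p = 0.0631 for Socs3 and 0.125 for Pim1), and Pim1 was also lost without blood of run 1 (edgeR 0.0507), blood of run 2 (0.0554) or bone marrow of run 1 (0.0812). Between spleen and blood, 0 of the 6 genes differed in the edgeR fit, where 0.167% of all genes did. None of the 6 reached an unadjusted p of 0.05, and DESeq2 called none either. The runs disagreed on this comparison: Socs3 was 3.59-fold lower in spleen than in blood in run 1, and 1.08 times its blood level in run 2 (counting interval 0.959 to 1.21). Pim1 was 1.75-fold lower in run 1 and at 0.976 of blood in run 2. The spleen libraries also differed in make-up, with granule genes (Camp, Ltf, Ngp, Lcn2 and Chil3) at 2% or more of UMIs in 45.3% of run 1 and 3.28% of run 2 neutrophils, and only 46.2% of the cells of run 2 met the neutrophil rule. T cell and B cell barcodes of spleen run 2 held Socs3 at 48.7 and 16.1 CPM, both below the 247 CPM of its neutrophils, and 145 left-out barcodes without markers of any class held it at 232 CPM (155 to 333). In blood of run 2, 907 barcodes with erythroid markers held Socs3 at 20.6 CPM, against 230 CPM in neutrophils.

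Levels were also compared between immature and mature neutrophils of each library. Granule genes mark immature neutrophils, and cells were parted at 2% of UMIs from the 5 granule genes named above, a level reached by 65.8% (run 1) and 50.4% (run 2) of neutrophils in bone marrow and by 11.6% and 1.03% in blood. This cut divides a continuum, and 900 of the 3426 cells of bone marrow run 2 lay between 1% and 4%. Socs3, Pim1 and Jak1 were higher in the mature cells in 6 of 6 libraries, with counting intervals that did not overlap, and Stat3 likewise in 5. The median log2 difference (CPM + 10) was 3.70 for Socs3, 1.49 for Pim1, 1.1 for Jak1 and 0.95 for Stat3. Jak2 (median 1.14) was also higher in mature cells in 6 of 6 libraries. Its intervals were apart in 2 of these, and its immature cells in blood of run 2 held 0 UMIs. For Stat5a, Socs1 and Cish they were apart in 0 of 6, 5 and 4 libraries, and some immature values were 0 UMIs, so no direction was detectable at this depth. These are descriptions without a test, and the share of all genes that were higher in mature cells was not computed.

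Socs3 showed the widest gap. In bone marrow it was at 2.62 and 6.68 CPM in immature and at 19.6 and 54.6 CPM in mature cells. In spleen of run 1 the immature cells held 4 Socs3 UMIs (1.97 CPM) and the mature cells 116 (178 CPM), and in blood of run 1 they held 3 (8.3 CPM) and 215 (215 CPM). Over all 6 libraries, immature cells ranged from 1.97 to 8.3 CPM, and the mature cells of blood and spleen from 178 to 283 CPM. Granule and other marker genes take up much of the mRNA in immature cells. With the level taken as CPM of the UMIs outside these marker genes, Socs3, Pim1, Stat3 and Jak1 still had the higher value in mature cells in 6 of 6 libraries. The gap for Jak1 in bone marrow run 2 then ran from 183 to 247. Stat3 in spleen of run 2 was all but equal, at 162 in immature cells (21 UMIs) and 163 in mature cells. Stat5a in spleen of run 2 then went the other way, at 23.2 in immature cells (3 UMIs) and 15.8 in mature cells.

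Among mature cells alone, a comparison added after the data were seen, Socs3 was still lower in bone marrow than in blood by a log2 difference of -2.19 (edgeR adjusted p = 0.00028), whereas Pim1 (-0.57, adjusted p = 0.0733), Jak2 (-0.85, 0.0582) and Jak1 (-0.26, 0.376) did not pass. Between mature cells of spleen and blood, the Socs3 difference was -0.01.

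**Figure D2:**
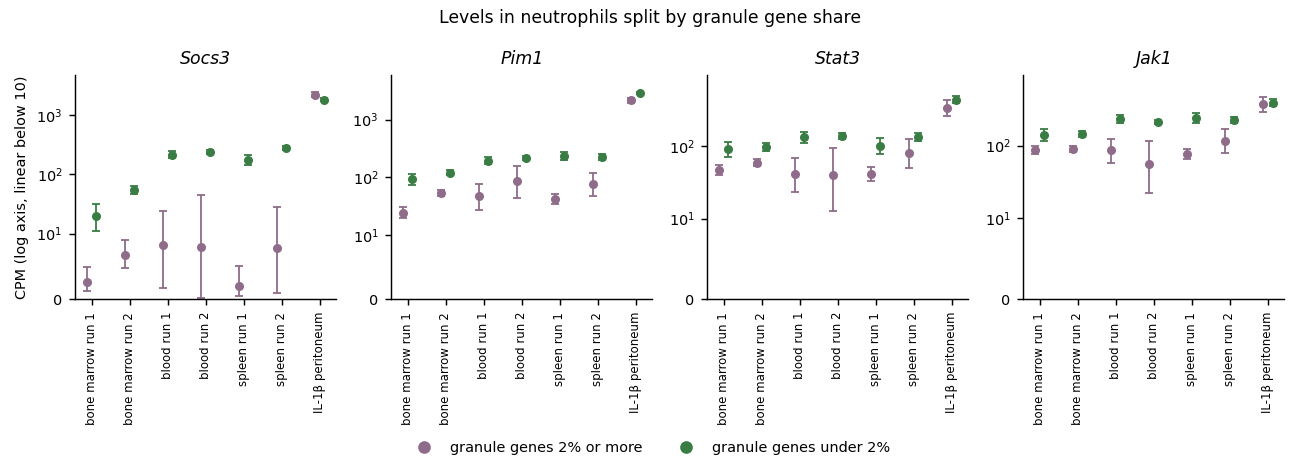
Level in CPM (vertical axis, logarithmic above 10 and linear below) of 4 genes in neutrophils with granule genes at 2% or more of UMIs (purple) and under 2% (green), in the 6 healthy libraries and IL-1β peritoneum. Bars are 95% Poisson counting intervals. In the healthy libraries the green points lie above the purple, most widely for Socs3, and in IL-1β peritoneum the Socs3 points are at 2234 and 1855 CPM.

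The inflammation library asked how neutrophils change at inflamed sites. In IL-1β lung and IL-1β peritoneum, Cish, Socs3, Pim1, Jak2 and Socs1 were all higher than in healthy blood, Cish by 57.5 and 40.4 times. In the arthritic conditions, in contrast, Socs3 lay near its healthy level, and Pim1 alone of the 8 was more than 2-fold higher in the arthritic joint. Stimulus, site and time (3 h or day 7) differ together between these models. No healthy lung, peritoneum or joint and no blood of IL-1β mice was profiled. Effects of stimulus, site and time therefore cannot be told apart. Among genes with at least 10 UMIs, 5 of the 8 were more than 2-fold higher in lung (10.8% of all genes) and 1 lower (51.5% of all genes), and 5 were higher in peritoneum (9.87%) and 0 lower (53.9%). In the joint, 1 was higher (12.7%) and 1 lower (27.8%), and in arthritic blood 0 were higher and 1, Cish, was lower (15.0%), on 8 UMIs in each of the conditions compared. All 4 comparisons share the same healthy blood cells.

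The level scale bears on these ratios. Most genes had a lower CPM in the IL-1β sites than in healthy blood, with a median log2 ratio over all genes of -0.65 in lung and -0.71 in peritoneum, against -0.28 in arthritic blood and -0.23 in the joint. Scaling by TMM, which centres the bulk of genes, brought these medians to -0.08, -0.12, 0.01 and 0.00. Of the genes past 2-fold, the share that was higher moved from 17.3% to 45.6% in lung, from 15.5% to 43.9% in peritoneum, from 11.7% to 46.0% in arthritic blood and from 31.3% to 59.6% in the joint. With TMM scaling, the lung and peritoneal ratios were 108 and 77.7 for Cish, 16.1 and 21.2 for Socs3, 9.15 and 7.77 for Socs1, 8.12 and 18.9 for Pim1, and 10.2 and 9.15 for Jak2. Values below are in CPM, with the TMM value where the direction turns on it.

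Cish, the inhibitor of STAT5 signalling, rested on 8 UMIs (7.11 CPM) in healthy blood, 8 (2.97 CPM) in arthritic blood and 44 (4.27 CPM) in the joint, and on 540 (409 CPM) in lung and 271 (287 CPM) in peritoneum. The first group of conditions and the IL-1β sites did not overlap in their intervals. The ratio to healthy blood was 57.5 (29.0 to 134) in lung and 40.4 (20.2 to 94.6) in peritoneum. For shares of cells, those with under 1000 UMIs were left out and the rest were thinned to 1000 UMIs. This kept 286 of 380 lung and 231 of 292 peritoneal cells. It kept 354 of 509 cells in healthy blood, 674 of 814 in arthritic blood and 2734 of 2857 in the joint. Cish was then seen in 33.9% of lung and 25.5% of peritoneal cells. In healthy blood, arthritic blood and joint it was seen in 0.847%, 0.297% and 0.622% of cells. Over all cells before thinning, the shares in the same order were 62.6%, 50.3%, 1.38%, 0.983% and 1.47%. The library held too few cells of other classes to set the background of free RNA, and its conditions were captured together.

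Socs3 stood at 175 CPM in healthy blood, 180 CPM in arthritic blood and 153 CPM in the joint, and at 1496 CPM in lung and 1930 CPM in peritoneum. The arthritic conditions lay close to healthy blood, with ratios of 1.03 (0.871 to 1.22) and 0.871 (0.751 to 1.02), or 1.40 and 1.21 with TMM scaling, whose intervals lie above 1. The IL-1β sites were apart, with ratios of 8.54 (7.37 to 9.94) in lung and 11.0 (9.51 to 12.8) in peritoneum. Of the cells kept and thinned to 1000 UMIs, 68.5% in lung and 77.9% in peritoneum had a Socs3 UMI, against 16.4% in healthy blood and 13.3% in the joint. Over all cells before thinning, the shares were 85.8%, 92.8%, 27.3% and 33.0%. In peritoneum, 49 cells with granule genes at 2% or more of UMIs held Socs3 at 2234 CPM and the other 243 cells at 1855 CPM. Cells above this cut were thus not below the others there, and 104 of the 292 cells lay near it (1% to 4%). Whether the cut parts immature from mature cells at this site was not tested.

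Socs1 was at 11.6 CPM in healthy blood, 7.80 CPM in arthritic blood and 15.7 CPM in the joint, and at 56.0 CPM in lung and 46.7 CPM in peritoneum. It was 4.85 (2.67 to 9.53) and 4.04 (2.14 to 8.17) times healthy blood in the latter 2 sites. The joint value, 2.02 (1.28 to 3.35) times arthritic blood, was carried unevenly by the ImmGen classes that the authors assigned. The 245 joint cells of class GN.Thio.PC held Socs1 at 54.4 CPM (37.7 to 76), and the 2260 of class GN.Arth.SynF at 12.5 CPM (10.2 to 15.1). The joint GN.Thio.PC interval for Socs1 overlaps those of the IL-1β sites, whereas the same cells held Socs3 at 155 CPM and Cish at 11.2 CPM, far below those sites. This class was singled out after its values were seen.

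Pim1 had its own order. It was at 279 CPM in healthy blood, 238 CPM in arthritic blood, 751 CPM in the joint, 1201 CPM in lung and 2739 CPM in peritoneum. Apart from the neighbouring healthy and arthritic blood, no intervals of neighbours in this order overlapped. Arthritic blood was at 0.853 of healthy blood in CPM and at 1.16 with TMM scaling. The ratios to healthy blood were 2.69 (2.40 to 3.02) in the joint, 4.30 (3.81 to 4.87) in lung and 9.81 (8.72 to 11.1) in peritoneum. Against arthritic blood the joint was 3.15 (2.91 to 3.42) times higher, and Pim1 and Socs1 were the 2 of the 8 genes past 2-fold in that comparison, where 17.3% of all genes were. Peritoneum exceeded lung by 2.28 (2.14 to 2.43) times for Pim1, and the other gene past 2-fold there was Stat5a, on 28 and 8 UMIs (9.89% of all genes were higher by that much).

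Jak2, the kinase of the G-CSF, GM-CSF and interferon-gamma receptors among others, was at 69.3 CPM in healthy blood, 53.5 CPM in arthritic blood and 87.5 CPM in the joint, and at 376 CPM in lung and 330 CPM in peritoneum. Its ratio was 5.43 (4.27 to 6.98) in lung and 4.76 (3.70 to 6.18) in peritoneum. Jak1 went another way. It was at 434 CPM in healthy blood, 368 CPM in arthritic blood, 340 CPM in the joint, 223 CPM in lung and 386 CPM in peritoneum. Its lung ratio was 0.513 (0.442 to 0.594) in CPM but 0.968 with TMM scaling, and its peritoneal ratio 0.890 and 1.71, so a direction for Jak1 depends on the scaling. The arthritic ratios turned as well, from 0.849 to 1.15 for Jak1 and from 0.771 to 1.05 for Jak2 in blood, and from 0.783 to 1.09 for Jak1 in the joint.

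Stat3 ranged from 230 CPM in the joint to 418 CPM in peritoneum, with ratios of 0.790 in arthritic blood, 0.778 in the joint, 1.26 (1.09 to 1.45) in lung and 1.42 (1.22 to 1.64) in peritoneum. With TMM scaling the arthritic values turned to 1.07 and 1.08 and the IL-1β values to 2.38 and 2.72. Stat5a had 26 UMIs in healthy blood (23.1 CPM), 81 in the joint (7.87 CPM) and 8 in lung (6.06 CPM), ratios of 0.340 (0.217 to 0.552) and 0.262 (0.103 to 0.596). In the cells with at least 1000 UMIs, thinned to 1000, these ratios were 0.647 and 0.990, with intervals that include 1. A lower Stat5a was thus not detectable at that depth in those cells. In peritoneum the Stat5a ratio was 1.29 (0.726 to 2.28) over all UMIs and 3.68 (1.21 to 13.3) after thinning.

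**Figure D3:**
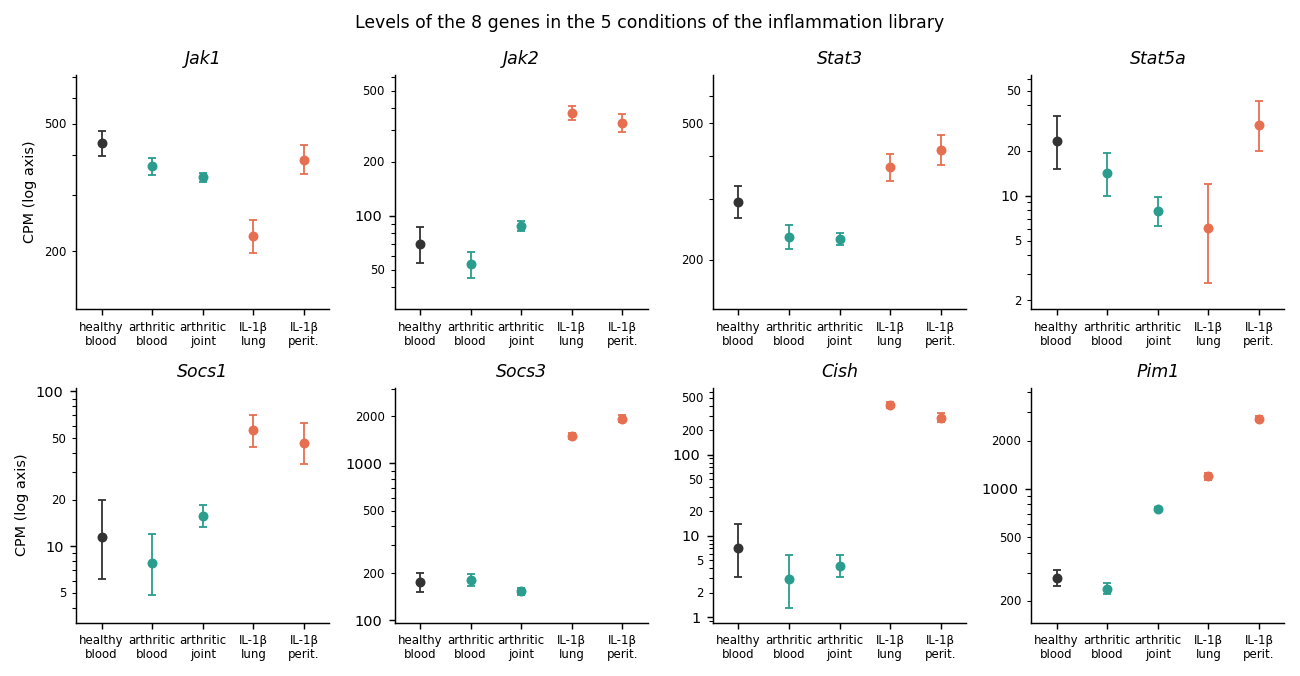
Level in CPM (logarithmic vertical axis, each panel on its own range) of each gene in neutrophils of the 5 conditions of the inflammation library. Points are 1 pool each, in black for healthy blood, green for arthritis and orange for IL-1β, with 95% Poisson counting intervals. Cish, Socs3, Socs1 and Jak2 separate the IL-1β sites from the other 3 conditions, and Pim1 is also raised in the joint.

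**Figure D4:**
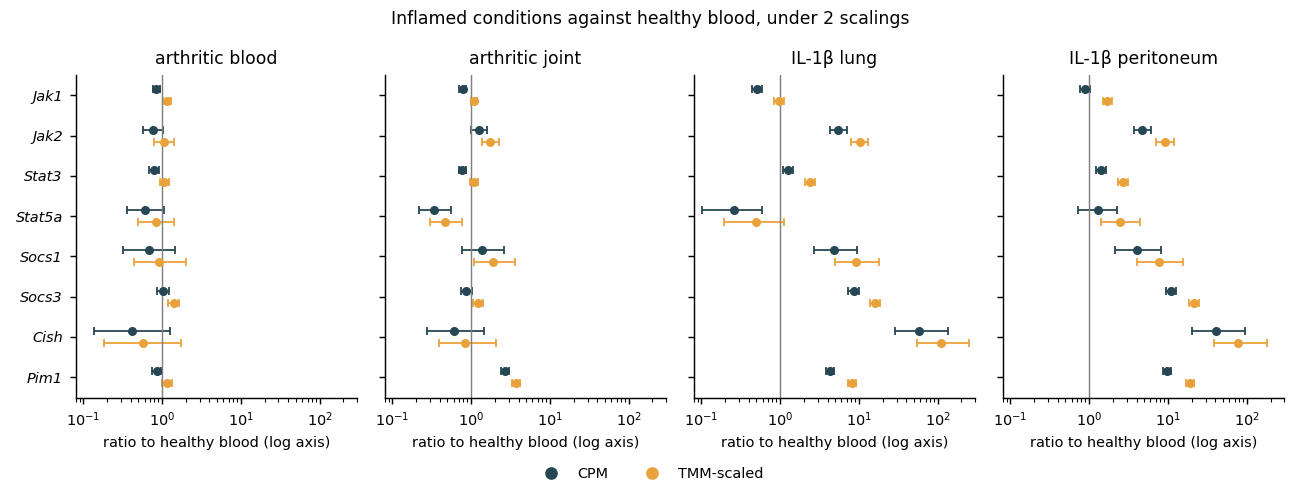
Ratio of each inflamed condition to healthy blood (horizontal logarithmic axis, 1 marked by the line), from CPM in dark blue and after TMM scaling in yellow, with 95% counting intervals. TMM moves all genes of a condition to the right by the same factor, which turns Stat3 and Jak1 in both arthritic conditions but leaves Cish, Socs3, Socs1, Pim1 and Jak2 above 1 in lung and peritoneum under both scalings.

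The authors' ImmGen classes can also be set side by side within the IL-1β sites. In lung, Socs3 was at 1515 CPM in 275 GN.Arth.SynF cells and 1815 CPM in 74 GN.Thio.PC cells, and Cish at 397 and 751 CPM. In peritoneum, Socs3 was at 1906 CPM in 101 GN.Arth.SynF and 2197 CPM in 163 GN.Thio.PC cells. The joint cells of class GN.Arth.SynF, a class also present at the IL-1β sites, held Socs3 at 145 CPM and Cish at 3.76 CPM.

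Other genes of the pathway were taken from lists of 67 genes, not all of which are reported here. Upstream, 11 of 16 tested receptor genes fell in bone marrow against blood and 1, Il3ra, rose, beside 15.8% and 15.2% of all genes, and the list's median log2 difference was -1.14. The largest falls were of Il13ra1 (-3.32 ± 0.29, edgeR adjusted p = 0.000284) and of the G-CSF receptor Csf3r (-2.81 ± 0.32, edgeR adjusted p = 0.000632). Csf3r was at 145 and 216 CPM in bone marrow and 1421 and 1625 CPM in blood. Csf2rb, Csf2rb2, Il6ra, Il10ra, Il10rb, Il4ra, Ifnar1, Ifngr1 and Ifngr2 also fell. Among other STAT genes, Stat2, Stat5b and Stat6 fell, and of 8 tested inhibitors 2 fell (the phosphatases Ptpn1 and Ptpn6), a share near that of all genes. Downstream, 11 of 13 tested STAT target genes fell, among them Junb (-3.31 ± 0.40, edgeR adjusted p = 0.000821), Fos, Ccnd2, Gbp2, Mcl1, Ier3, Irf1, Bcl3, Il4ra, Cebpb and Il1rn, and Ccnd3 rose. The medians were -1.68 for targets and 0.00 over all genes. Against spleen, 4 of 16 receptors (Csf3r, Il13ra1, Il6ra and Ifnar1) and 5 of 13 targets (Gbp2, Junb, Mcl1, Irf1 and Ccnd2) fell in bone marrow, beside 3.96% of all genes, and between spleen and blood no gene of these lists differed.

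In the inflammation library, receptors differed in their ratios. Csf3r was lower at each inflamed site, at 4056 CPM in healthy blood, 2129 CPM in the joint, 1179 CPM in lung and 1926 CPM in peritoneum. With TMM scaling its joint, lung and peritoneal ratios of 0.525, 0.291 and 0.475 become 0.731, 0.549 and 0.913. In contrast, the shared GM-CSF and IL-3 receptor chain Csf2rb was at 270 CPM in healthy blood and at 728, 903 and 948 CPM in joint, lung and peritoneum. The common gamma chain Il2rg ranged from 3 UMIs (2.67 CPM) in healthy blood to 92.3 CPM in lung and 103 CPM in peritoneum, ratios of 34.6 (11.6 to 170) and 38.6 (12.8 to 190). Il10ra was at 51.6 CPM in healthy blood and at 291 and 293 CPM at those sites. Of the receptors with enough UMIs, 4 of 16 were more than 2-fold higher and 1 lower in the joint, beside 12.7% and 27.8% of all genes. In lung, 5 of 14 were higher and 2 lower (10.8% and 51.5% of all genes), and in peritoneum 6 of 14 and 2 (9.87% and 53.9%). With TMM scaling, 9 were higher and 0 lower in lung, and 10 and 0 in peritoneum. Under that scaling, 45.6% (lung) and 43.9% (peritoneum) of all genes past 2-fold were higher.

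Among ligands, Osm (oncostatin M, a Stat3-activating cytokine) was at 32.9 CPM in healthy blood, 305 CPM in the joint, 685 CPM in lung and 93.4 CPM in peritoneum. Ebi3, a subunit of IL-27, was instead highest in peritoneum, at 549 CPM against 78.2 CPM in healthy blood. Csf3 itself had 12 UMIs in lung and 24 in peritoneum, and 0 in healthy blood, where the floor of 3 counts is 2.67 CPM. Il6, Csf2, Ifng and Ifnb1 had 0 UMIs in each of the 5 conditions.

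Of the other inhibitors, 2 of 11 were more than 2-fold higher and 3 lower in lung (Socs7, Pias2 and Pias3), and 2 of 10 higher and 4 lower in peritoneum (Socs6, Socs7, Pias3 and Pias4), beside 10.8% and 51.5%, and 9.87% and 53.9%, of all genes. With TMM scaling the balance turned, to 4 higher and 2 lower in lung, and 5 higher and 1 (Pias3) lower in peritoneum. This scaling moves all genes of a condition by the same factor. The higher share of all genes past 2-fold then moved from 17.3% to 45.6% in lung and from 15.5% to 43.9% in peritoneum. Pias3 was at 27.6 CPM in healthy blood, 7.57 CPM in lung and 2.12 CPM in peritoneum. The genes higher in CPM were 2 phosphatases: Ptpn1 was at 300 CPM in healthy blood, 1128 CPM in lung and 1326 CPM in peritoneum, and Ptpn2 at 24.9, 113 and 124 CPM. Stat5b was lower in all 3 inflamed tissues, at 158 CPM in healthy blood and 61.1, 34.1 and 44.6 CPM in joint, lung and peritoneum, and stayed below 1 after TMM scaling (ratios of 0.538, 0.406 and 0.541). Jak3, at 3.56 CPM in healthy blood, was at 18.2 CPM in lung and 25.5 CPM in peritoneum.

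Il1rn, which encodes the IL-1 receptor antagonist, was at 297 CPM in healthy blood, 1543 CPM in the joint, 3281 CPM in lung and 8392 CPM in peritoneum. The survival gene Bcl2l1 was at 16.9 CPM in healthy blood and at 112, 225 and 114 CPM at these sites, and Ier3 at 128, 626, 3817 and 1877 CPM in the same order. Cebpb and Gbp2 were likewise more than 2-fold higher in joint, lung and peritoneum. Bcl3 stood out by site, at 90.7 CPM in healthy blood, 75.0 CPM in the joint, 142 CPM in lung and 536 CPM in peritoneum. Irf1 was at 234 CPM in healthy blood, 78.8 CPM in the joint and 54.5 CPM in lung, but 224 CPM in peritoneum, where its ratio turned from 0.957 to 1.84 with TMM scaling, as did that of Bcl3 in the joint from 0.827 to 1.15. Of 13 targets, 6 were more than 2-fold higher and 1 lower in the joint, 7 higher and 2 lower in lung, and 7 higher and 1 lower in peritoneum, beside the same shares of all genes as for the receptors. With TMM scaling these were 7 and 1, 9 and 1, and 10 and 0. Of all genes past 2-fold under that scaling, 59.6%, 45.6% and 43.9% were higher in joint, lung and peritoneum.

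**Figure D5:**
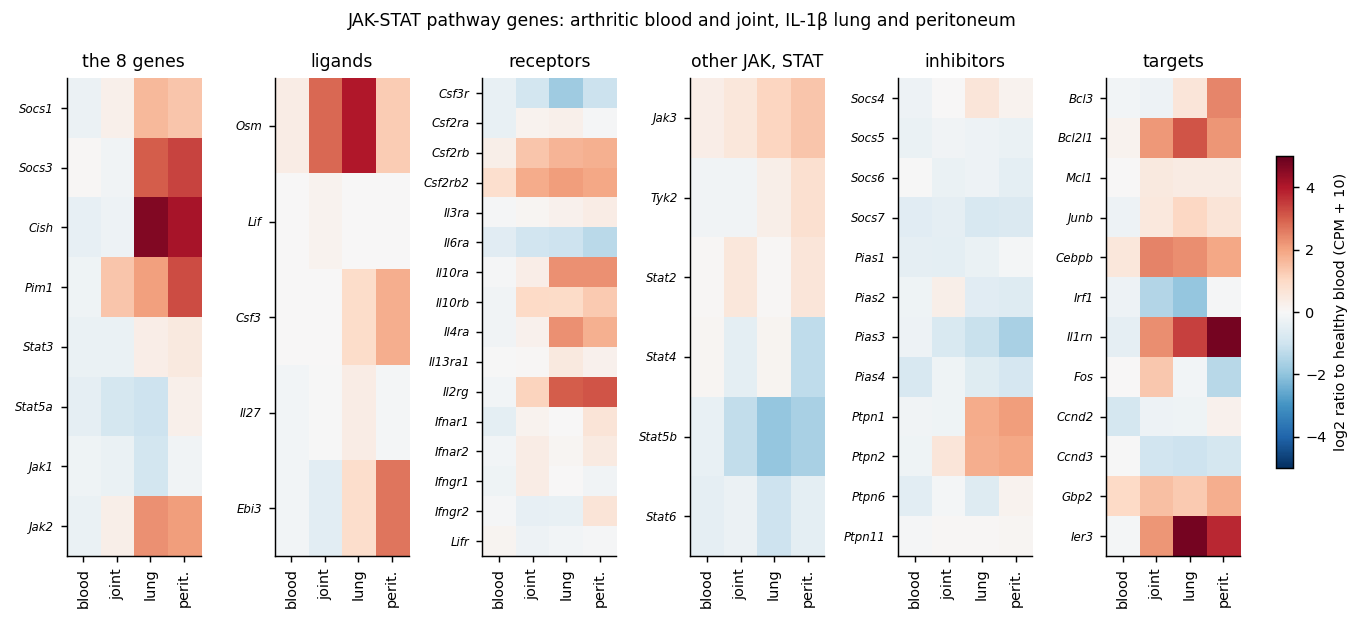
Log2 ratio to healthy blood of CPM + 10 (colour, red higher and blue lower) for the 8 genes and most other genes of the pathway with at least 10 UMIs, in columns for arthritic blood, arthritic joint, IL-1β lung and IL-1β peritoneum. Cish and Socs3 are red in both IL-1β columns and not in the joint, Il2rg, Ier3, Cebpb and Bcl2l1 are red in all 3, and Csf3r and Stat5b are blue in the joint, lung and peritoneum columns.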

How the data were processed

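Neutrophils of 6 healthy libraries and 5 hashtagged conditions were profiled by droplet RNA sequencing. The deposited tables hold counts of UMIs per gene and cell, made by the authors with Cell Ranger on mm10, in a different version for each healthy run and for the inflammation library, per the study's methods. No doublet caller was run. Counts were summed per library over neutrophils. Healthy tissues were compared with edgeR 4.0.16 (R 4.3.3, limma 3.58.1; quasi-likelihood test, TMM factors, filterByExpr, Benjamini-Hochberg at 0.05), in a fit over all 6 libraries with run as a block, since blood, marrow and spleen were taken from the same animals within each run. Deviations of same-run libraries correlated at 0.683, 0.685 and 0.657 across 6588 genes. With 2 pools per tissue, p-values measure the spread between pools, and mouse age, software version and run cannot be told apart. In simulated data for bone marrow against blood on 6588 genes, 44% of genes changed 2-fold and 92% of those changed 4-fold were found. Genes not listed in every run 1 table were not tested. The inflammation conditions, 1 pool each, were compared by CPM among genes with at least 10 UMIs over both conditions, past a fold of 2. DESeq2 1.42.0, other normalizations, cell filters, left-out libraries and thinning were alternatives. Python 3.11.15, NumPy 2.4.6, SciPy 1.17.1, pandas 2.3.3 and matplotlib 3.10.9 were used. Named genes are the 8 genes and those of the pathway lists that passed a call or were among the highest of their list. The genes and lists were chosen with earlier results of these data known.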

Additional observations from a re-analysis of the deposited data

Results flagged for a closer look

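Pim1 lay in opposite directions in the 2 arthritic conditions, at 0.853 times healthy blood in arthritic blood and 2.69 times in the joint. With TMM scaling the arthritic blood value turned to 1.16, so the opposite direction held in CPM alone. Stat3 was at 0.778 times healthy blood in the joint, against 1.26 in IL-1β lung and 1.42 in IL-1β peritoneum, and the joint value turned to 1.08 with TMM scaling. Each condition was 1 pool and all ratios share the same healthy blood cells, so these differences in direction were not tested.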

How the results depend on the processing

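Of the 8 genes, 4 were called between bone marrow and blood. The call count was 0 without the replicate block, 1 (Socs3) with cells bearing markers of other cell types left out, and 1 (Socs3) among mature cells alone, and ran from 2 to 5 when a library was left out, lowest without blood of run 1. Leaving out marked cells left 2 cells in blood of run 2, and there the Jak1 log2 difference turned to 0.017. Between bone marrow and spleen, 2 genes were called, but 0 without the replicate block, 1 with marked cells left out and from 0 to 2 when a library was left out, with 0 without spleen of run 2. Between spleen and blood, 0 were called in every fit. For arthritic blood, 1 gene was past 2-fold, but 0 with TMM scaling, 0 after thinning to 1000 UMIs, 0 at a minimum of 30 UMIs and 2 at a fold of 1.5. For the joint, 2 were past 2-fold, 1 (Pim1) after thinning and 3 at a fold of 1.5, with Cish as lower. For lung, 6 were past 2-fold and 6 to 7 over the alternatives, and for peritoneum 5 and 5 to 7, where TMM scaling added Stat3 in lung and Stat3 and Stat5a in peritoneum as higher and a fold of 1.5 added Jak1 in lung as lower. Thinning exchanged Stat5a for Jak1 (0.388) among the lung genes and added Stat5a in peritoneum. Cish, Socs3, Socs1, Pim1 and Jak2 were past the fold used, and higher, at both sites under each of these alternatives. The cause of these changes was not tested. Genes called between bone marrow and blood numbered 2037, and 259 to 2664 over the alternatives (259 without the block, 1321 with DESeq2). Between bone marrow and spleen they numbered 320, with 0 to 1226 over the alternatives, and between spleen and blood 11, with 0 to 231. The fits with unlisted genes filled in, with mature cells alone, without neutrophil marker genes and without cells bearing non-erythroid markers were added after the data were seen. Depth limits Socs1, Cish and Stat5a most, and each inflamed condition rests on 1 pool.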

Other observations

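Within the IL-1β sites, detection of the genes in the same cells was compared in cells with at least 1000 UMIs, each thinned to 1000. In lung, Jak2 was seen in 38.7% of the 194 cells with a Socs3 UMI and in 19.6% of the 92 cells without, and Cish in 34.5% and 27.2%. In peritoneum the shares were 27.6% and 28.0% for Jak2, and 26.5% and 26.0% for Cish. The shares for Pim1 in cells with and without a Socs3 UMI were 57.7% and 66.3% in lung and 84.5% and 88.0% in peritoneum, and in lung those for Stat3 were 29.4% and 32.6% and those for Socs1 5.15% and 6.52%. These cells come from 1 pool per site, and no test was made.

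Over 8 profiles, each taken against its own blood control, the genes with the pattern most like Socs3 among 5569 genes were Sbno2 (Pearson r = 0.983), Pde4b (0.979) and Furin (0.978). For Pim1 they were Cd274 (0.991), Mthfsl (0.990) and Mefv (0.987), for Cish Fnbp1l (0.994), Saa3 (0.992) and Il1a (0.990), and for Socs1 Phf8 (0.970), Rhoh (0.967) and Sf3b6 (0.965). The profiles share control cells, unlisted genes entered as 0, and the correlations are descriptions.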
